A study of Mus musculus with 6 samples.

Results

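The miR-29 family was followed in small RNA libraries from mouse RPE-choroid-sclera, the retinal pigment epithelium (RPE) with the vascular and fibrous coats behind it. The eyes either had choroidal neovascularization (CNV) brought on by laser or had no laser. Its members are the mature microRNAs (miRNAs) whose names begin with miR-29a, miR-29b or miR-29c, chosen by name alone. That rule finds 7 of the 2334 small RNAs listed for each library, which are 1836 miRNAs and 498 transfer RNA-derived small RNAs (tsRNAs). They are the 3p arms mmu-miR-29a-3p, mmu-miR-29b-3p and mmu-miR-29c-3p and the 5p arms mmu-miR-29a-5p, mmu-miR-29b-1-5p, mmu-miR-29b-2-5p and mmu-miR-29c-5p, written without the species prefix from here on. All mice were male and 7 to 8 weeks old, and the labels name no strain, genotype or allele. Each CNV eye was given 25 laser burns around the optic disc (532 nm, 100 mW, 0.1 s, 50 µm), and eyes were removed 7 days later. The control group was of the same age and had no laser. Each group had 3 libraries, each a pool of tissue from 4 eyes, and the labels do not say whether pools came from different mice, so the spread behind each p-value is that of these pools and may be partly technical.

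The laser breaks the membrane under the RPE, after which new vessels grow from the choroid and the lesion later scars. The miR-29 family is known for holding down the messenger RNAs of collagens, elastin and other matrix proteins, and its loss is a common feature of scarring tissue, where transforming growth factor beta lowers it in fibroblasts. A miRNA precursor folds into a hairpin whose 5′ and 3′ sides give the 5p and the 3p arm. One arm is usually loaded into Argonaute and pairs with targets through its seed, and the other is mostly degraded. In the miR-29 family the 3p arm is the one that represses collagens.

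The mature sequences are shown because the 3p arms differ so little that their reads could be confused, while the 5p arms differ in their seeds. All 7 names matched the RefSeq miRNA table (build GRCm38.p6), and the capitals mark the seed, bases 2 to 8 counted from the 5′ end.
miR-29a-3p: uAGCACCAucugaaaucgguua
miR-29b-3p: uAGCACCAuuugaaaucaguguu
miR-29c-3p: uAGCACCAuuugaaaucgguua
miR-29a-5p: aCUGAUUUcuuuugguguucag
miR-29c-5p: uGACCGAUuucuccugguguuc
miR-29b-1-5p: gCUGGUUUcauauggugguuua
miR-29b-2-5p: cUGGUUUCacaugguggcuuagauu
The 3p arms share the seed AGCACCA and their first 9 bases, and none of the other mature names in that table has this seed. Over 22 bases miR-29a-3p and miR-29c-3p differ by the single substitution C10U (the base of miR-29a-3p first). Over the same length miR-29b-3p differs from miR-29c-3p by G18A, U21G and A22U (the base of miR-29c-3p first), and it is 1 base longer. The 4 annotated 5p arms have 4 different seeds. Part of that is an offset of the annotated start: set 1 base apart, miR-29b-1-5p and miR-29b-2-5p differ at 2 of 21 positions, and set 2 bases apart, miR-29a-5p and miR-29c-5p differ at 3 of 20.

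The family comes from 4 genes in 2 pairs. The hairpins are shown with both mature arms in capitals, since the arms are compared below.
Mir29a, chr6:31062660-31062747, minus strand: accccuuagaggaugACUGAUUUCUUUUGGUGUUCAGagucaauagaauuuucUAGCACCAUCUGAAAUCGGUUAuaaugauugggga
Mir29b-1, chr6:31063023-31063093, minus strand: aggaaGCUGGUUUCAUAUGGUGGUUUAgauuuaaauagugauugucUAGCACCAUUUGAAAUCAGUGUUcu
Mir29b-2, chr1:195037040-195037120, plus strand: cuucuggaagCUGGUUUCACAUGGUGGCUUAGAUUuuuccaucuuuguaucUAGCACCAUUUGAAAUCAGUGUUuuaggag
Mir29c, chr1:195037547-195037634, plus strand: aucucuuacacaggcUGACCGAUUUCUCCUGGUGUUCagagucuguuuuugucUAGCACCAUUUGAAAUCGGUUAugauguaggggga
The pair on chromosome 6 is separated by 275 bases and the pair on chromosome 1 by 426 bases. In the GENCODE M21 annotation of GRCm38, Mir29b-2 and Mir29c lie in an exon of the noncoding gene A330023F24Rik on the same strand and opposite an exon of Cd46. Mir29a lies in no annotated host gene, and Mir29b-1 overlaps only the edge of the noncoding gene Gm27019. The mature miR-29b-3p is identical from both of its genes, so its counts cannot be divided between the chromosomes, whereas the 5p arms can.

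The libraries held 5057142 to 12839386 counts, with control replicate 2 the deepest. Levels are given as CPM, counts relative to the library total, scaled by TMM (trimmed mean of M-values) over miRNAs and tsRNAs together. Group means are given ± the SD of the pools (n = 3), which is the spread between pools.

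The family was dominated by 1 member. Of all miR-29 counts, miR-29a-3p made up 92.5% to 95.5% per library, and the 5p arms together 0.505% to 0.906%. The family as a whole took 1.26%, 0.914% and 0.805% of the miRNA counts in control replicates 1 to 3 and 1.02%, 0.962% and 0.833% in CNV replicates 1 to 3, so the groups overlapped. By mean share of miRNA counts, miR-29a-3p ranked 29 among the 1836 miRNAs, miR-29b-3p 128 and miR-29c-3p 169. The 5p arms ranked lower, with miR-29c-5p at 271, miR-29a-5p at 333, miR-29b-2-5p at 425 and miR-29b-1-5p at 636. The mature forms are 22 to 25 bases long, so a scale per length would hardly change this order, but ligation favours some ends over others and levels of different miRNAs are not calibrated against each other.

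CNV was then compared with control for each member. None of the 6 members tested passed edgeR's quasi-likelihood test at a Benjamini-Hochberg adjusted p of 0.05, against 3 of all 997 small RNAs tested (0.301%). DESeq2 and limma-voom also called 0 of the 6. DESeq2 called 38 of the 823 small RNAs to which it gave an adjusted p (4.62%), and limma-voom called 3 of the 997. At an unadjusted p under 0.05 there was 1 member, miR-29c-3p, beside 177 of the 997 (17.8%). The seventh member, miR-29b-1-5p, had too few counts for the test. Of the 6, 5 had a negative log2 fold change, with a median of -0.30. Over all 997 the median log2 fold change was 0.05 and 46.4% were negative. For 3 of the 6, miR-29c-3p, miR-29c-5p and miR-29a-5p, all CNV libraries lay below all control libraries, beside 89 of the 997 (8.93%). Scaled by total counts alone, the same 3 had groups that did not overlap, beside 128 of the 997 (12.8%).

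**Figure D1:**
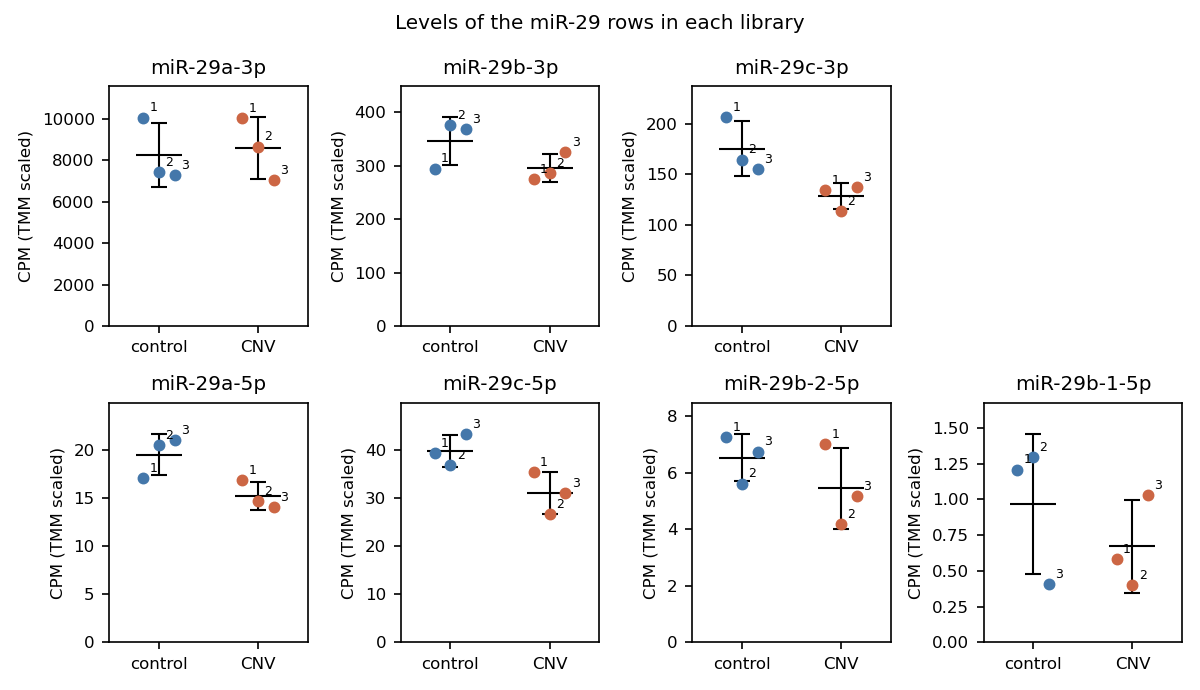
Level of each miR-29 row in each library, in CPM with TMM scaling (vertical axes start at 0 and differ between panels). Points are libraries, numbered by replicate, and bars are the group mean ± SD. The 3 CNV points of miR-29c-3p, at 113 to 137 CPM, lie below the 3 control points, at 155 to 206 CPM, while those of miR-29a-3p overlap.

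Levels of miR-29a-3p, by far the main family member, were 10067, 7427 and 7290 CPM in control replicates 1 to 3 and 10046, 8665 and 7061 CPM in CNV replicates 1 to 3. Replicate 1 was the highest and replicate 3 the lowest in both groups, and the ranges covered each other almost entirely. The means were 8261 ± 1565 CPM in control and 8591 ± 1494 CPM in CNV, a log2 fold change of 0.06 with a 95% interval from -0.38 to 0.50 (adjusted p = 0.923 in edgeR's test). The sign of this value was not stable, since it was -0.11 when total counts alone were used. That scaling moved the median of all small RNAs from 0.05 to -0.11, and relative to that median miR-29a-3p stood at 0.0087 and -0.0047 (log2).

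The 3p arm of Mir29c, miR-29c-3p, showed the most negative value of the family. It stood at 206, 164 and 155 CPM in control and at 135, 113 and 137 CPM in CNV, so each CNV pool was below each control pool. Means of 175 ± 27.3 and 128 ± 13.1 CPM gave a ratio of 0.733 and a log2 fold change of -0.45 (SE 0.17), with a 95% interval from -0.85 to -0.05. Its p was 0.0311 before and 0.239 after adjustment over all small RNAs in edgeR's test. Relative to the median of all small RNAs it was at -0.50 under TMM and -0.49 with total counts. Left-out libraries moved it between -0.59 and -0.31, the latter without control replicate 1, which held the highest level.

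The third collagen-repressing arm, miR-29b-3p, was at 295, 376 and 368 CPM in control and 276, 287 and 326 CPM in CNV. Control replicate 1 lay within the CNV range, so the groups overlapped. The means were 346 ± 44.6 and 296 ± 26.3 CPM, a log2 fold change of -0.23 with a 95% interval from -0.60 to 0.14 (adjusted p = 0.552 in edgeR's test). It was -0.38 without CNV replicate 3, which held the highest CNV level, and -0.36 when scaled by total counts alone.

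Among the 5p arms, the partner strands that are mostly degraded, miR-29c-5p was the most abundant. Its level was 39.3, 36.7 and 43.3 CPM in control and 35.4, 26.7 and 31.0 CPM in CNV, again with every CNV pool below every control pool. The log2 fold change was -0.36 with a 95% interval from -0.78 to 0.07 (adjusted p = 0.383 in edgeR's test). The level of miR-29a-5p was 17.1, 20.6 and 21.0 CPM in control and 16.9, 14.7 and 14.1 CPM in CNV. Here the groups were separated only by the gap between 17.1 CPM in control replicate 1 and 16.9 CPM in CNV replicate 1, which rest on 99 and 87 counts. Its log2 fold change was -0.36 as well, with a 95% interval from -0.81 to 0.09 (adjusted p = 0.402 in edgeR's test).

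The 5p arms of miR-29b tell the 2 genes apart. The arm from chromosome 1, miR-29b-2-5p, was at 7.25, 5.61 and 6.74 CPM in control and 7.00, 4.18 and 5.16 CPM in CNV, and the groups overlapped (log2 fold change -0.25, 95% interval -0.85 to 0.36, adjusted p = 0.694 in edgeR's test). Its fold change lay at -0.47 without CNV replicate 1, -0.46 without control replicate 2, -0.15 without control replicate 1, -0.14 without CNV replicate 2 and -0.40 when scaled by total counts alone. The arm from chromosome 6, miR-29b-1-5p, had 7, 18 and 2 counts in the control libraries and 3, 2 and 6 in the CNV libraries. These counts were too few for the reported fit, so a difference between the groups was not tested there. Summed over each group, miR-29b-2-5p made up 153 of 180 counts of both arms in control (85.0%, exact binomial 95% interval 78.9% to 89.9%) and 87 of 98 in CNV (88.8%, 80.8% to 94.3%). These intervals cover counting error only and overlap each other. In every library the chromosome 1 arm outnumbered the chromosome 6 arm, although the chromosome 6 neighbour miR-29a-3p outnumbered the chromosome 1 neighbour miR-29c-3p in every library.

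**Figure D2:**
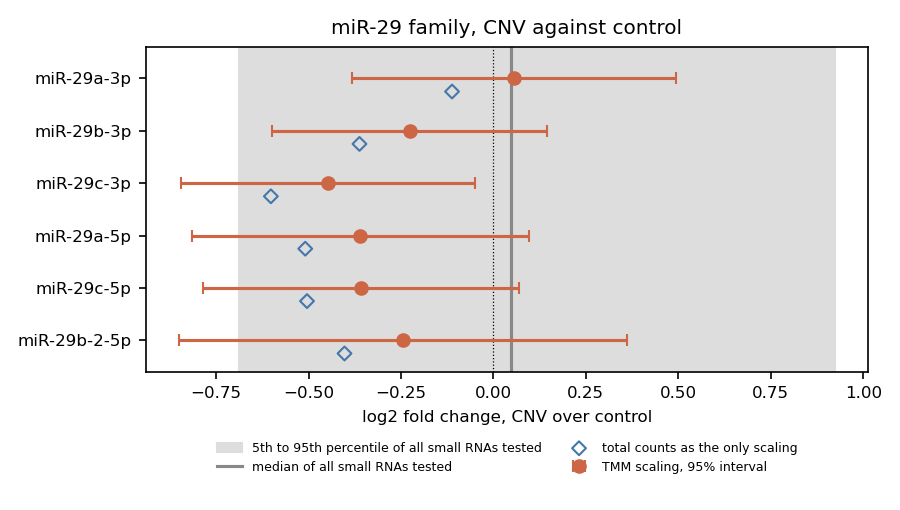
Log2 fold change of CNV over control for the 6 members tested. Circles with bars are the TMM-scaled values with their 95% intervals, open diamonds the values scaled by total counts alone, and the grey band the 5th to 95th percentile (-0.69 to 0.92) of all 997 small RNAs. Each member lies inside the band, and miR-29c-3p is the only one whose interval does not reach 0.

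The 3p arms were next set against each other within each library, where no scaling between libraries is needed. For each 100 counts of miR-29a-3p there were 2.05, 2.21 and 2.13 counts of miR-29c-3p in control replicates 1 to 3 and 1.34, 1.31 and 1.95 in CNV replicates 1 to 3. The control values lay close together and above all CNV values, with CNV replicate 3 near them. The difference in mean log2 ratio was -0.50, with an exact permutation p of 0.1 (two-sided, 3 against 3), the smallest this design can give, and 0.3 adjusted over the 3 pairs of 3p arms. Counts of miR-29b-3p were 2.93, 5.06 and 5.05 for each 100 of miR-29a-3p in control and 2.74, 3.31 and 4.61 in CNV. Here control replicate 1 sat among the CNV pools, and the difference of -0.28 in log2 ratio had an exact permutation p of 0.5 (adjusted 0.6). That difference became -0.54 without control replicate 1, -0.48 without CNV replicate 3, -0.15 without control replicate 2 or 3 and -0.11 without CNV replicate 1. For each 100 of miR-29b-3p there were 70.0, 43.8 and 42.1 counts of miR-29c-3p in control and 48.8, 39.6 and 42.2 in CNV, with overlapping groups (log2 difference -0.22, exact permutation p = 0.6, adjusted 0.6). As miR-29a-3p and miR-29c-3p differ by 1 base and no source used here gives the mismatches allowed in the authors' alignment, the counts of the rare miR-29c-3p may hold reads of miR-29a-3p, which was not tested.

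**Figure D3:**
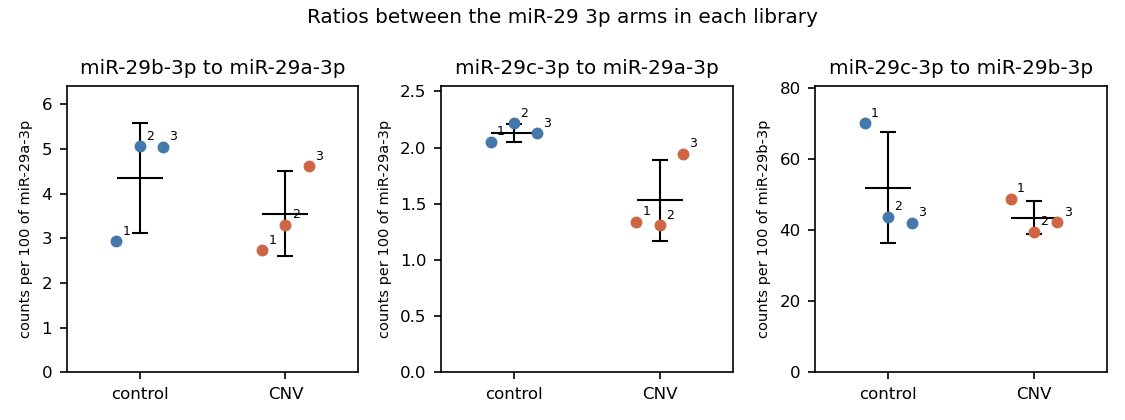
Counts of a 3p arm for each 100 counts of another in the same library (vertical axes start at 0). Points are libraries, numbered by replicate, and bars are the group mean ± SD. The ratio of miR-29c-3p to miR-29a-3p is 2.13 ± 0.0818 in control and 1.53 ± 0.359 in CNV, and the other ratios overlap between groups.

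The ratio of 5p to 3p counts differed far more between the genes than between the groups. As levels of different miRNAs are not calibrated against each other, the differences between genes may be partly technical. Mir29a gave very little 5p arm, with 0.245 ± 0.0655 counts of miR-29a-5p for each 100 of miR-29a-3p in control and 0.179 ± 0.0176 in CNV. Mir29c gave 23.1 ± 4.47 counts of miR-29c-5p for each 100 of miR-29c-3p in control and 24.1 ± 1.96 in CNV. In between stood miR-29b-2-5p, at 1.93 ± 0.489 and 1.86 ± 0.592 for each 100 of miR-29b-3p, a denominator to which both miR-29b genes contribute. The order of miR-29a and miR-29c was thus opposite in the 2 arms, with 179 to 230 counts of miR-29c-5p for each 100 of miR-29a-5p over the 6 libraries. Both miR-29b 5p arms were rarer than either. Among 180 precursors with both arms tested, ordered by mean log2 ratio of 5p to 3p from the lowest, miR-29a stood at the 3.89th percentile, miR-29b-2 at the 11.1th and miR-29c at the 26.7th.

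Arm ratios were compared between CNV and control with limma over the same 180 precursors. None of the 3 miR-29 precursors passed, and none of the 180 did (0%). The groups overlapped for each of the 3, where all CNV libraries lay below all control libraries for 14 of the 180 (7.78%). There were 19 of the 180 and 0 of the 3 at an unadjusted p under 0.05. The log2 ratio of miR-29a was -9.20, -8.49 and -8.43 in control and -9.20, -9.19 and -8.96 in CNV. Control replicate 1 lay with the CNV pools and the other control pools above them, a difference of -0.41 with a 95% interval from -0.91 to 0.09 (adjusted p = 0.473 in limma). The difference was -0.66 without control replicate 1 (adjusted p = 0.133 in limma) and -0.27 without control replicate 3. For miR-29b-2 the difference was -0.05 (-0.67 to 0.56, adjusted p = 0.954 in limma) and for miR-29c it was 0.08 (-0.38 to 0.54, adjusted p = 0.954 in limma). Both intervals reach well to either side of 0.

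**Figure D4:**
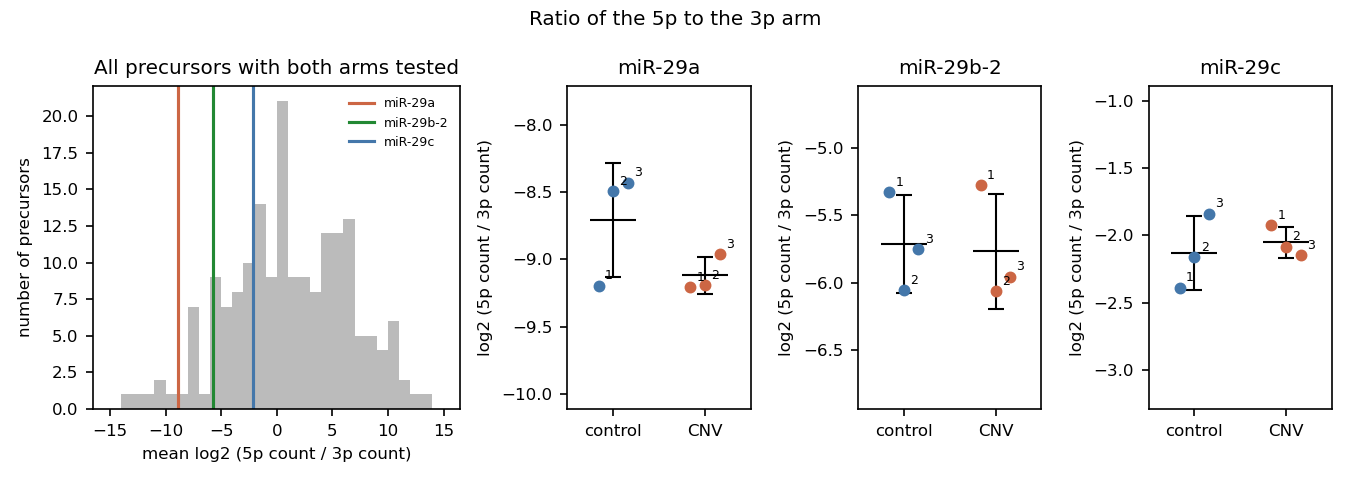
Left, histogram of the mean log2 ratio of 5p to 3p counts for 180 precursors, with the miR-29 precursors as vertical lines. Right, the same ratio in each library, with points numbered by replicate and bars for the group mean ± SD (each axis spans the same width of log2 units). The lines lie at different places left of the middle of the histogram, while control and CNV overlap in each panel.

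Other miRNAs with a known part in fibrosis were read from the same fit. They were chosen with earlier results of these data known. Of 8 miRNAs that promote fibrosis, 7 had a positive log2 fold change and 1 a negative one. Over all 997 small RNAs tested 46.4% were negative. The 8 include both arms of miR-199a, so they are not 8 separate precursors. The test was passed by 1 of the 8, beside 3 of the 997 (0.301%). The median of the 8 was 0.44, beside 0.05 for all small RNAs. Scaled by total counts alone the median was 0.27, beside -0.11 for all. The one that passed was miR-21a-5p, which strengthens fibroblast survival signalling and is induced by injury. It was at 16940, 9742 and 11163 CPM in control and 45363, 50464 and 38230 CPM in CNV (log2 fold change 1.82, adjusted p = 0.0183 in edgeR's test). The call was lost when CNV replicate 1 or 2, or control replicate 2 or 3, was left out, with 0 of the 8 then past the test. In each of those fits 0 of all small RNAs passed (1020 to 1036 tested). With only rows at a mean of at least 20 CPM kept, 0 of 442 passed, so the call was lost there as well. The p53 target miR-34a-5p was at 119 ± 5.70 and 228 ± 55.5 CPM (log2 0.93) and miR-214-3p, a miRNA of fibroblasts, at 673 ± 50.1 and 1036 ± 129 CPM (log2 0.62), neither past edgeR's test. DESeq2 called both higher (adjusted p 0.0106 and 0.0294), and with miR-21a-5p 3 of the 8, beside 38 of 823 small RNAs (4.62%).

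Of 10 miRNAs that, like miR-29, restrain fibrosis, 4 had a negative log2 fold change, beside 46.4% of all small RNAs tested. None passed in either direction by edgeR or DESeq2. The median of the 10 was 0.08, or -0.10 when scaled by total counts alone. The 3 with the smallest p were all lower in CNV. The lymphocyte miRNA miR-150-5p was at 213 ± 26.4 and 152 ± 16.9 CPM (log2 -0.48). The level of miR-101a-3p was 10139 ± 525 and 8398 ± 727 CPM (log2 -0.27) and that of miR-30c-5p, which represses connective tissue growth factor, 11239 ± 907 and 9806 ± 624 CPM (log2 -0.20). These 3 were picked by p, so their likeness in size to miR-29c-3p and miR-29b-3p says nothing about the 10 as a set. Of the 10, 6 had a positive log2 fold change, up to 0.30 for miR-200b-3p. The groups were separated, with CNV lower, for miR-150-5p, miR-101a-3p and miR-29c-3p, beside 89 of the 997 small RNAs tested (8.93%). Those of miR-30c-5p and miR-29b-3p overlapped.

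Among 194 other miRNAs with a mean of at least 100 CPM, those most alike each 3p arm over the 6 libraries were sought by Pearson's r of log2 CPM, given as a description since libraries share depth and makeup. Closest to miR-29a-3p were miR-429-3p (r = 0.93), of the epithelial miR-200 family, and miR-30b-5p (r = 0.91). The level of miR-429-3p was 409, 189 and 108 CPM in control and 396, 244 and 169 CPM in CNV, which repeats the high replicate 1 and the low replicate 3 of both groups. Closest to miR-29b-3p were the arms miR-30e-3p (r = 0.98) and miR-30a-3p (r = 0.96). The level of miR-30e-3p was 492, 651 and 683 CPM in control and 481, 472 and 560 CPM in CNV, so control replicate 1 lay among the CNV pools as it did for miR-29b-3p. Closest to miR-29c-3p were miR-194-5p (r = 0.96) and the retinal and immune miR-181c-5p (r = 0.96). The level of miR-181c-5p was 150, 131 and 98.2 CPM in control and 84.2, 71.7 and 88.0 CPM in CNV, with the groups apart.

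Markers of the cell types in the tissue, also chosen with earlier results of these data known, are given beside these levels. None of the RPE, neuron, photoreceptor, fibroblast, smooth muscle, endothelium or leukocyte markers passed edgeR's test, so the directions below are values only. By DESeq2, miR-96-5p, miR-138-5p and miR-9-3p passed as lower and miR-142a-5p, miR-142a-3p, miR-214-3p and miR-223-3p as higher. DESeq2 called 38 of 823 small RNAs (4.62%). In pooled tissue fewer cells of a type and less RNA per cell cannot be told apart. The RPE miRNAs miR-204-5p and miR-211-5p summed to 6768 to 6985 CPM in control and 4522 to 6499 CPM in CNV, and both had negative fold changes. The 4 neuron markers (miR-124-3p, miR-9-5p, miR-9-3p and miR-138-5p) all had negative fold changes, with sums of 13870 to 21052 CPM in control and 7830 to 12495 CPM in CNV. The 3 photoreceptor markers (miR-183-5p, miR-182-5p and miR-96-5p) did as well, with sums of 49348 to 75779 and 24736 to 49473 CPM. Both lists include miRNAs of the neural retina, which is not part of the labelled tissue. The 3 fibroblast markers (miR-199a-5p, miR-199a-3p and miR-214-3p) all had positive fold changes, at 43417 to 46909 and 54131 to 60776 CPM in sum. They are also among the 8 fibrosis-promoting miRNAs above. The 2 smooth muscle markers (miR-143-3p and miR-145a-5p, the latter also among those 8) had positive fold changes. Their sums overlapped, at 46140 to 62876.5 CPM in control and 55939.7 to 73197 CPM in CNV. The 2 endothelium markers (miR-126a-3p and miR-126a-5p) had negative fold changes. Their sums overlapped as well, at 35246.5 to 45069 CPM in control and 35449 to 42881 CPM in CNV. Of the 4 leukocyte markers (miR-142a-3p, miR-142a-5p, miR-223-3p and miR-150-5p) all but miR-150-5p had positive fold changes. Their sums were 463 to 581 CPM in control and 612 to 911 CPM in CNV. The lower one, miR-150-5p, is also in the fibrosis-restraining list above, as are miR-133a-3p and miR-200c-3p among the markers below. The part of these differences in the lower miR-29c and miR-29b levels was not tested. None of these markers was at 0 in any library.

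Some marker sums varied widely between libraries of a group. The 3 surface epithelium markers (miR-205-5p, miR-203-3p and miR-200c-3p) summed to 5202, 2519 and 2304 CPM in control replicates 1 to 3 and to 6603, 3271 and 3781 CPM in CNV replicates 1 to 3, highest in replicate 1 of each group as miR-29a-3p was. The 3 skeletal muscle markers (miR-1a-3p, miR-133a-3p and miR-206-3p) summed to 34304, 80898 and 91114 CPM in control and 90589, 75230 and 57437 CPM in CNV. These sums fell from replicate 1 to 3 in CNV, as miR-29a-3p did, but rose in control, where miR-29a-3p fell. The 3 red cell markers (miR-451a, miR-144-3p and miR-486a-5p) summed to 2072, 2108 and 1311 CPM in control and 4165, 3236 and 955 CPM in CNV, lowest in replicate 3 of each group as miR-29a-3p was. Their part in the spread of miR-29a-3p was not tested.

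The direction of each member was followed through 14 alternatives of scaling, filter, tool, replicate block and left-out library. The level of miR-29c-3p, miR-29c-5p and miR-29b-3p was lower in CNV in all 14, and that of miR-29a-5p and miR-29b-2-5p in all 13 in which they were tested. For miR-29a-3p it was lower in 6 of 14 and higher in 8. None of the members passed the test under any of them. The smallest adjusted p in edgeR's test was 0.149, for miR-29c-3p without CNV replicate 3. All 14 alternatives reuse the same libraries, so the tally is not repeated support for a decrease. For miR-29c-3p, miR-29c-5p and miR-29a-5p, whose groups did not overlap, leaving out a library could hardly turn the sign.

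**Figure D5:**
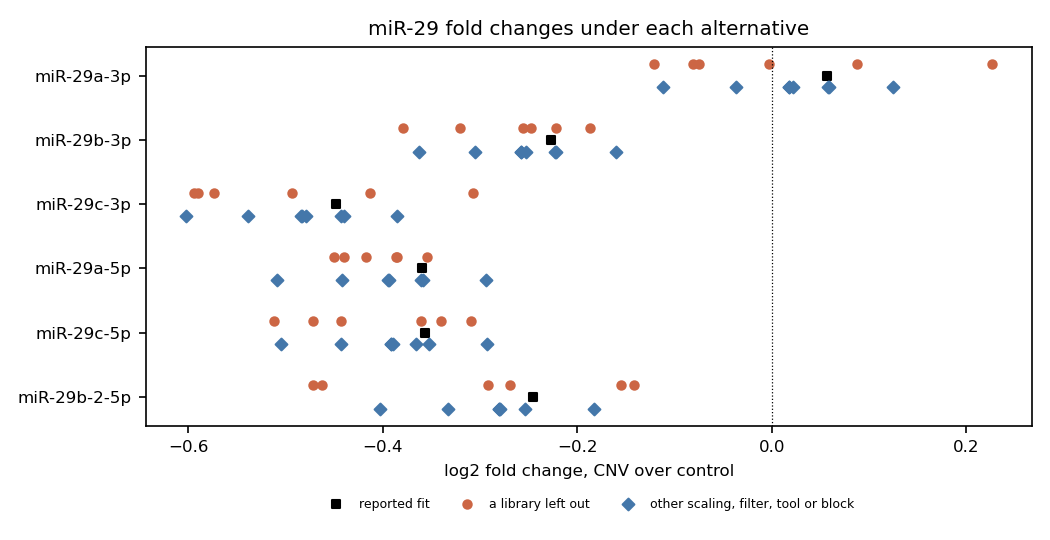
Log2 fold change of CNV over control for each member tested, in the reported fit (squares), with 1 library left out (circles) and with another scaling, filter, tool or the replicate block (diamonds). The values of miR-29c-3p run from -0.60 to -0.31 and those of miR-29a-3p from -0.12 to 0.23, across 0.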

How the data were processed

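Small RNAs of 14 to 40 nt were sequenced from Trizol RNA, per the labels' protocols. The authors' deposited tables give a read count per mature miRNA and tsRNA for each library. The submitters' processing notes name Bowtie, and no source used here gives its settings, the genome build or the rule for reads matching several miRNAs. A deposited CPM column was left aside, because its miRNA and tsRNA rows rest on different totals.

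Analysis was in R 4.3.3. Rows were kept by filterByExpr of edgeR 4.0.16 (minimum count 10, minimum total 15), scaled with TMM and fitted together, with no covariate, by edgeR's quasi-likelihood method. Benjamini-Hochberg adjustment ran over all 997, with a threshold of 0.05, and 95% intervals came from the F statistic. The log2 ratio of 5p to 3p counts (each plus 0.5) was fitted with limma 3.58.1 (eBayes with trend) over 180 precursors paired by name. Ratios between 3p arms, with the same 0.5 added, had two-sided exact permutation tests. Correlations used log2 CPM with a prior count of 2. DESeq2 1.42.0, limma-voom and other scalings and filters were alternatives. Both fits were tested on simulated data. No pair of libraries agreed within sampling noise. Named are all miR-29 rows, fibrosis miRNAs past the threshold or with the 3 smallest p in each part of the list, and the 2 miRNAs most alike each 3p arm. The miR-29 rows were taken by name, but the family and the lists, markers included, were chosen with earlier results of these data known.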

Additional observations from a re-analysis of the deposited data

How the results depend on the processing

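No member of the miR-29 family passed under any alternative. The direction of the 5 lower members held in each in which they were tested, though all reuse the same libraries. The fold change of miR-29a-3p changed sign with total counts as the only scaling (-0.11), with no filter on low counts (-0.037) and with single libraries left out (-0.12 to 0.23). With a library left out miR-29b-3p ran from -0.38 to -0.19 and miR-29b-2-5p from -0.47 to -0.14. Small RNAs called numbered 3 in the reported fit, 6 with miRNAs only, 88 with no filter and 0 with a mean of at least 20 CPM. They numbered 38 with DESeq2, 3 with limma-voom and 0 to 24 with a library left out. Of the fibrosis-promoting miRNAs 0 to 2 passed with a library left out, and the median of the restraining ones ran from -0.18 to 0.14 and was -0.10 with total counts. Among the arm ratios, 0 to 4 of all precursors passed with a library left out. The difference of miR-29b-2 was 0.022 with a pseudocount of 5 and -0.30 to 0.14 with a library left out, that of miR-29c -0.051 to 0.22 and that of miR-29a -0.66 to -0.27. For the 3p arms, the difference in log2 ratio between CNV and control was followed in the same way. It ran from -0.35 to 0.014 for miR-29c-3p to miR-29b-3p (the latter without control replicate 1). The range was -0.69 to -0.40 for miR-29c-3p to miR-29a-3p and -0.54 to -0.11 for miR-29b-3p to miR-29a-3p. The cause of these shifts was not tested.

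With the replicate block, which takes equal replicate numbers as pairs, 36 small RNAs, 2 fibrosis-promoting miRNAs and 1 arm ratio passed, and 0 miR-29 members. The numbers are not shown to pair the pools: deviations of same-numbered pools correlated at 0.29, 0.03 and 0.17. Control replicates 1 and 3 correlated best with the CNV pool of the same number, but control replicate 2 with CNV replicate 3 (0.15). Depth limited miR-29b-1-5p, with at most 18 counts, which entered a test only with no filter (log2 fold change -0.66, 95% interval -1.96 to 0.63, edgeR adjusted p = 0.784).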
